A study of Oryza sativa with 6 samples.

Results

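Jasmonate is a lipid-derived plant hormone of wounding and defence responses and of flower and leaf development. JAZ proteins, a branch of the TIFY family, bind and hold back its transcription factors until the hormone, bound to the receptor COI1, marks them for degradation. Their genes are themselves induced by the hormone, so the pathway feeds back on itself. OPR enzymes reduce 12-oxo-phytodienoic acid, the precursor of the hormone, and JAMYB is a MYB transcription factor that was named for its induction by jasmonate. The genes described here are JAZ4, JAZ6, OPR7 and JAMYB, in shoot apices of wild-type (WT) rice and of the dwarf, slender-leaved mutant dsl1.

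A gene was a member when a transcript cluster (a group of array probes read as 1 transcript) was paired with it alone and 1 of the 4 names was its symbol or synonym in the rice gene reference. The 4 names matched 5 genes, out of 15140 genes with a cluster of their own, because 2 genes carry the name OPR7. LOC4345762 is listed as OsOPR7, and also as OPR3, OPR13 and OG1. LOC4329684 is listed as OsOPR8, OPR8 and OPR7. They are called OPR7 and OPR8 below. Both were kept, since each fits the rule above. JAZ numbers are ambiguous in the same way. JAZ4 (LOC4347000) is also OsTIFY6b and OsJAZ8, and JAZ6 (LOC4333065) is also OsTIFY10a and OsJAZ5. The prefixed names OsJAZ4 and OsJAZ6 are also given to JAZ10 and JAZ7, which had no cluster of their own here. JAMYB is LOC4351131. Each of the 5 genes had 1 cluster, and no coordinates are printed, because the sources used here name no genome build for the array.

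Apices with the meristem and its youngest leaf primordia were dissected under the microscope from soil-grown plants, when the tip of the fifth leaf was emerging, in 3 WT and 3 dsl1 samples, each hybridised to 1 array. The mutant is altered in a histone deacetylase, an enzyme that takes acetyl groups off histones. No treatment was given to either genotype, and the labels state neither the background strain, the nature of the allele nor how many plants were pooled in a sample. Whether the replicates were separate plantings is not in the labels, so the p-values reflect the spread among 3 samples a genotype, part of which may be technical.

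The 6 arrays had medians of 5.30 to 5.40 on the log2 scale over 54922 clusters. WT replicate 3 stood closer to the mutant than the other WT arrays did, with a mean correlation of 0.9759 with the dsl1 arrays and 0.9752 with the other WT arrays, so results are also given without it. WT replicates 1 and 2 had 0.9715 and 0.9672 with the dsl1 arrays, and 0.9750 and 0.9706 with the other WT arrays. Within WT, replicate 2 and not replicate 3 was thus the least like the others. The sources used here do not say which cluster reads the mutated gene, so the labels could not be checked through it. Of the 27 shoot apex markers, 17 had a cluster of their own. Their mean log2 level was 5.51 to 5.54 in WT and 5.55 to 5.57 in dsl1. The homeobox gene OSH15, which marks the meristem, had WT arrays at 5.34 ± 0.142 and mutant arrays at 5.69 ± 0.145 (SD, n = 3 each), and OSH1 had 4.93 ± 0.234 and 5.08 ± 0.395. Over the 17, however, 8 were higher and 9 lower in dsl1, with a median log2 difference of -0.014, and OsWOX4, DL and OsYAB3 differed by -0.28, -0.25 and -0.22. None of the 17 passed in limma. Before adjustment 2 had a p of less than 0.05, OSH15 and OSH71, both with the mutant above WT. The 11 measured markers of green leaf averaged 8.82 to 9.09 in WT and 8.63 to 8.99 in dsl1, and the 9 of root 4.31 to 4.75 and 4.40 to 4.44. Of the green leaf markers 9 of 11 were lower in dsl1, with a median log2 difference of -0.18, and none passed in limma or had an unadjusted p of less than 0.05. In these bulk samples, fewer cells of a type and less RNA per cell cannot be told apart.

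The members were chosen after their differences between dsl1 and WT in these same arrays were known, so those differences are given as a description, with no test. JAZ4, JAZ6, OPR7 and JAMYB were on the higher side in dsl1 and OPR8 on the lower side. Over all 15140 genes, 53.0% were on the higher side. JAMYB differed most, being 5.08-fold higher, JAZ6 was 1.98-fold higher, JAZ4 1.47-fold and OPR7 1.41-fold, while OPR8 was 1.46-fold higher in WT. The groups of 3 arrays did not overlap for 3 of the 5 genes: JAZ4 and JAMYB on the higher side and OPR8 on the lower. Such a gap was found for 24.4% of all genes, 15.0% on the higher side and 9.33% on the lower, and since the choice used this contrast nothing is read from the count.

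Among the repressors, JAZ4 had log2 levels of 8.64, 8.65 and 9.04 in WT replicates 1, 2 and 3 and of 9.42, 9.22 and 9.35 in dsl1 replicates 1, 2 and 3. All mutant values lay above all WT values, but the gap between the lowest dsl1 and the highest WT array was only 0.18. The WT mean was 8.78 ± 0.227 and the dsl1 mean 9.33 ± 0.101 (SD, 3 arrays each), a log2 difference of 0.56 (SE 0.156).

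JAZ6 stood at 9.07, 8.29 and 9.77 in WT replicates 1 to 3 and at 10.19, 9.68 and 10.21 in the dsl1 replicates. The groups overlapped, because WT replicate 3 was above dsl1 replicate 2. The WT mean was 9.04 ± 0.736 and the dsl1 mean 10.03 ± 0.300 (SD, 3 arrays each), a log2 difference of 0.98 (SE 0.366). Its WT replicates were unusually far apart, with an SD larger than in 97.9% of all genes, whose median WT SD was 0.194. The size of the difference thus moved with the WT array left out, from 0.61 without WT replicate 2 to 1.34 without WT replicate 3.

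**Figure D1:**
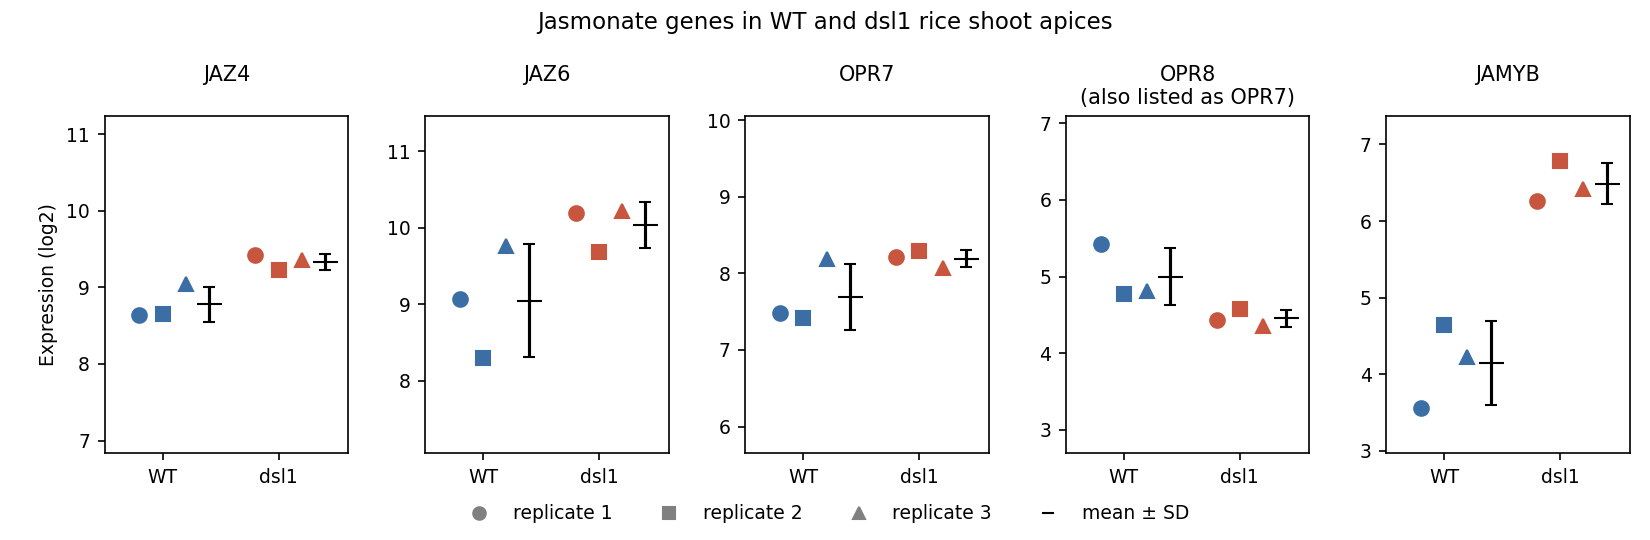
Log2 expression of the 5 genes in the 3 WT (blue) and 3 dsl1 (red) arrays, with 1 symbol per replicate number and the mean and SD beside them. Each panel has its own log2 axis of equal span. WT replicate 3 (triangle) is the highest WT array for JAZ4, JAZ6 and OPR7, and lies among the dsl1 arrays for JAZ6 and OPR7 but not for JAMYB.

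OPR7, the rice reductase assigned to jasmonate synthesis, was at 7.48, 7.41 and 8.19 in WT replicates 1 to 3 and at 8.21, 8.29 and 8.08 in the dsl1 replicates. WT replicate 3 lay inside the mutant range, and the other WT arrays lay well below it. The WT mean was 7.69 ± 0.432 and the dsl1 mean 8.19 ± 0.109 (SD, 3 arrays each), a log2 difference of 0.50 (SE 0.225), which was 0.75 without WT replicate 3 and 0.36 without WT replicate 2.

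OPR8, a relative with no role in jasmonate synthesis given in these sources, ran the other way. Its levels were 5.43, 4.77 and 4.80 in WT replicates 1 to 3 and 4.43, 4.57 and 4.36 in the dsl1 replicates. All mutant values were below all WT values, with a gap of 0.19, and WT replicate 1 stood highest. The WT mean was 4.999 ± 0.370 and the dsl1 mean 4.45 ± 0.110 (SD, 3 arrays each), a log2 difference of -0.54 (SE 0.203) that was -0.33 without WT replicate 1. Both means are below the median of all clusters, 5.33, so the signals were weak. In size the difference was close to that of JAZ4, 0.56. A value given for "OPR7" therefore depends on which of the pair is meant, and its sign turns with that choice.

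JAMYB was at 3.56, 4.64 and 4.23 in WT replicates 1 to 3 and at 6.26, 6.78 and 6.41 in the dsl1 replicates. The groups were separated by 1.62 on the log2 scale, more than the range within either group, 1.09 in WT and 0.52 in dsl1. The WT mean was 4.14 ± 0.549 and the dsl1 mean 6.48 ± 0.267 (SD, 3 arrays each), a log2 difference of 2.34 (SE 0.290), which ranged from 2.05 to 2.59 with any 1 array left out. JAMYB was weak in WT, where its level was under that of 72.6% of clusters, so the fold difference is less certain than the separation of the groups. WT replicate 3, which was high for the repressors and OPR7, was the middle WT array for JAMYB.

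The other genes of the pathway come from lists of names for repressors, OPR enzymes, other synthesis enzymes, perception, turnover and response. These lists held 22 measured genes beside the 5. In limma over all 54922 clusters, none of the 22 passed at a Benjamini-Hochberg adjusted p under 0.05. Without adjustment 2 were under 0.05 on the higher side and 0 on the lower, where 9.46% and 5.52% of all genes were. Those 2 were salT and LIS, already known from these arrays to be higher in dsl1, so nothing is read from their count. Only 0.0396% of all genes passed, 6 of 15140, so the absence of calls among 22 genes is close to that background. By sign, 17 of the 22 were on the higher side and 5 on the lower, while 53.0% of all genes were on the higher side. The median log2 difference was 0.25, against 0.019 over all genes, and salT and LIS are counted in both. For 3 of the 22, salT, LIS and ILL5, the groups did not overlap, all on the higher side. Over all genes the share was 15.0% on that side and 9.33% on the lower, so the count is near that background.

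Beside JAZ4 and JAZ6, 3 of the other 11 JAZ genes in the reference had a cluster of their own: JAZ3 (OsTIFY6a), JAZ8 (OsTIFY10c) and JAZ11 (OsTIFY11c). All were on the higher side, none passed, and in none did the groups separate. JAZ3 was at 8.02, 7.95 and 8.36 in WT replicates 1 to 3 and 8.53, 8.36 and 8.46 in dsl1, a log2 difference of 0.34 (SE 0.153, limma adjusted p = 0.451). JAZ8 was at 6.50, 6.87 and 8.44 in WT and 7.61, 7.87 and 7.82 in dsl1, a difference of 0.50 (SE 0.470, adjusted p = 0.71). JAZ11 was at 4.12, 4.24 and 5.81 in WT and 5.50, 6.45 and 5.57 in dsl1, a difference of 1.11 (SE 0.488, adjusted p = 0.439). In each, WT replicates 1 and 2 lay below all mutant arrays and WT replicate 3 among or above them.

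The remaining OPR genes gave no common direction. OPR1, listed also as OPDAR1, was at 4.16, 4.45 and 5.47 in WT replicates 1 to 3 and at 5.93, 7.03 and 4.94 in dsl1. Its mutant arrays were spread over 2.09 on the log2 scale, and the difference of 1.27 (SE 0.560, limma adjusted p = 0.441) did not pass. Without dsl1 replicate 2 it was 0.74. OPR5 differed by 0.26, OPR4 by -0.26 and OPR3 by -0.027, which turned to 0.0027 on quantile normalisation, all with an SE larger than the difference and mean levels under the median of all clusters. OPR1, OPR3, OPR4 and OPR5 belong to 1 family and stand in a run along the same chromosome in the gene reference, and the sources used here do not say how far the array's probes tell them apart.

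**Figure D2:**
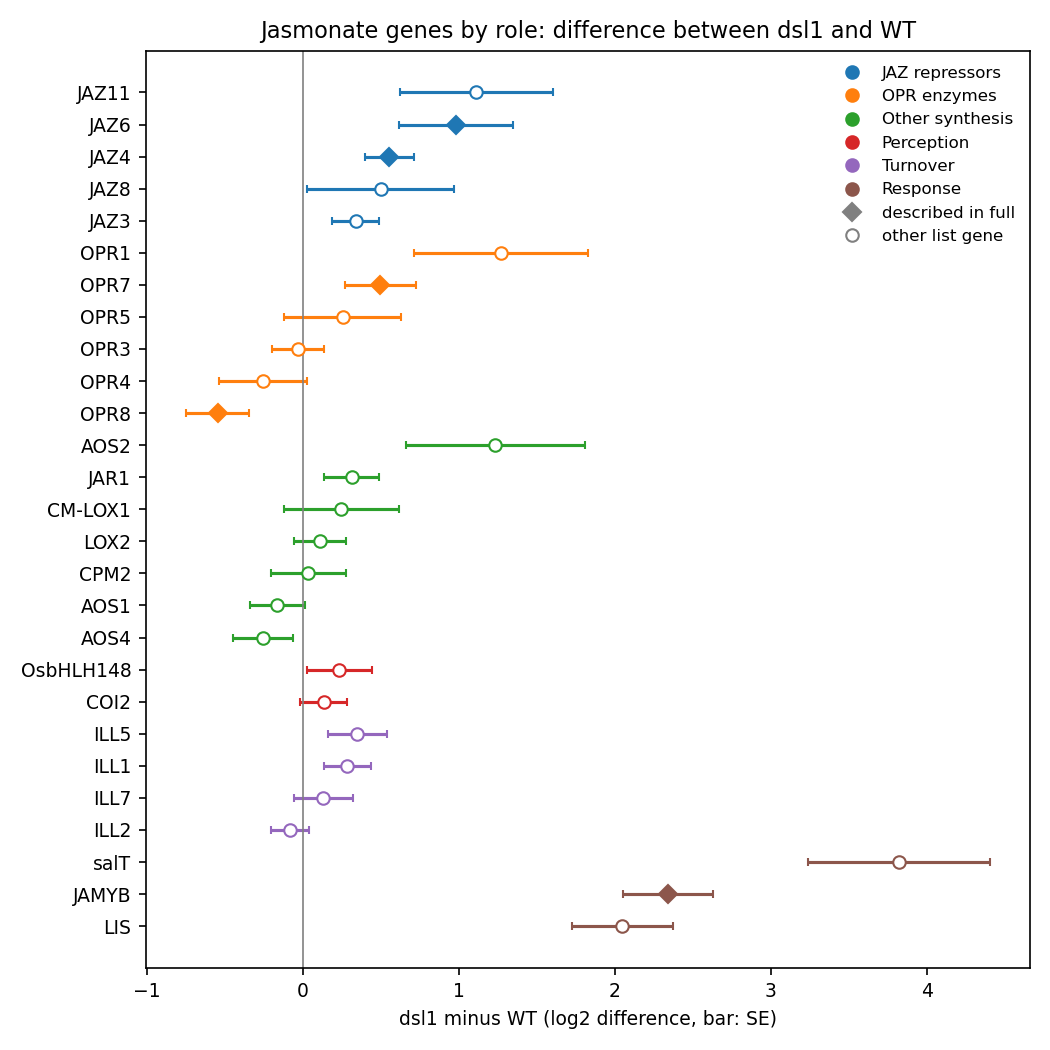
Log2 difference, dsl1 minus WT, with its SE, for the 27 measured jasmonate genes grouped by role. Filled diamonds are the 5 genes described in full and open circles the other 22. All 5 JAZ genes lie right of 0, OPR7 and OPR8 lie on opposite sides, and JAMYB, salT and LIS lie beyond 2.

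Among the other synthesis enzymes, 5 of 7 were on the higher side and none passed. AOS2, an allene oxide synthase of the step before 12-oxo-phytodienoic acid, differed by 1.24 (SE 0.576, limma adjusted p = 0.463). That difference came mainly from dsl1 replicate 2 at 7.47, with dsl1 replicate 3 at 4.91, below WT replicate 3 at 5.01, and without dsl1 replicate 2 it was 0.56. AOS1 differed by -0.16 and AOS4 by -0.25. JAR1, which joins jasmonate to isoleucine to make the active hormone, differed by 0.31 (SE 0.174, adjusted p = 0.522), CM-LOX1, a lipoxygenase, by 0.25, LOX2 by 0.11, and CPM2, the allene oxide cyclase, by 0.036, which turned to -0.012 on quantile normalisation.

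The measured genes of perception and turnover showed small differences. Only 2 of the 6 listed perception genes had a cluster of their own. The receptor genes COI1A and COI1B, and NINJA1 and RSS3, had none, so perception was mostly not measured. COI2, of the receptor family, differed by 0.13 and OsbHLH148, a factor tied to jasmonate signalling under drought, by 0.24, both at weak levels. The ILL genes belong to a family of amidohydrolases, some of which in Arabidopsis split hormone conjugates. ILL5 was at 7.98, 7.89 and 7.59 in WT replicates 1 to 3 and 8.49, 7.98 and 8.05 in dsl1, with all mutant arrays above WT by a margin of only 0.0034, and differed by 0.35 (limma adjusted p = 0.506). ILL1, ILL7 and ILL2 differed by 0.29, 0.13 and -0.082. None passed.

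The response list beside JAMYB held salT, a salt-induced lectin, and LIS, a linalool synthase, both of which were known from earlier results of these arrays to be higher in dsl1. Their differences were 3.82 (SE 0.583, limma adjusted p = 0.162) and 2.05 (SE 0.323, adjusted p = 0.165), in 3 of 3 mutant arrays above all WT arrays. When only the 15829 clusters with 1 gene were fitted, where 0.474% passed, both passed, with adjusted p of 0.0396 and 0.0432, and they were the only ones of the 22 to do so. Over the 15 alternatives their adjusted p ran from there up to 0.49 and 0.498.

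Within WT, the repressors and the synthesis enzymes were high in the same array. WT replicate 3 was the highest WT array for all 5 JAZ genes, for OPR7 and for 6 of the 7 other synthesis enzymes. Over the 22 list genes this held for 14, against 29.2% of all 15140 genes. The mean log2 level over the 5 JAZ genes was 7.27 and 7.20 in WT replicates 1 and 2, 8.29 in WT replicate 3, and 8.25, 8.32 and 8.28 in the dsl1 replicates. On this measure WT replicate 3 lay inside the range of the mutant arrays.

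Measured from the mean of WT replicates 1 and 2 towards the dsl1 mean, WT replicate 3 stood at 57.2% of the way for JAZ4, 80.4% for JAZ6 and 99.8% for OPR7. For JAMYB it stood at 5.29%, for LIS at 42.8%, and for salT on the far side, at -1.15 from the other WT arrays. In 5 of the 7 other synthesis enzymes (AOS1, AOS4, CM-LOX1, CPM2 and LOX2) WT replicate 3 was above every dsl1 array. In CM-LOX1, for example, it stood at 6.26 against a highest mutant value of 5.94, and in CPM2 at 8.51 against 8.21. The high level in WT replicate 3 was thus shared by the repressors and most synthesis genes, but not by AOS4, where WT replicate 1 was higher. WT replicate 3 was also the highest WT array for OPR1, OPR3, OPR5, ILL1 and LIS. It was not the highest for JAMYB, salT, OPR4, OPR8, COI2, OsbHLH148, ILL2, ILL5 or ILL7.

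All 11 green leaf markers were lower in WT replicate 3 than in the mean of the other WT arrays, with a median difference of -0.21, while 52.9% of all genes were lower there. Their mean log2 level there was 8.82, against 9.09 and 9.05. The 17 apex markers were split, with 9 above and 8 below. Against WT replicates 1 and 2 alone, the leaf markers had a median difference of -0.27 in dsl1, and 4 of 11 were lower in every mutant array than in either WT array, against 15.0% of all genes. The part of leaf tissue in the jasmonate differences was not tested.

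**Figure D3:**
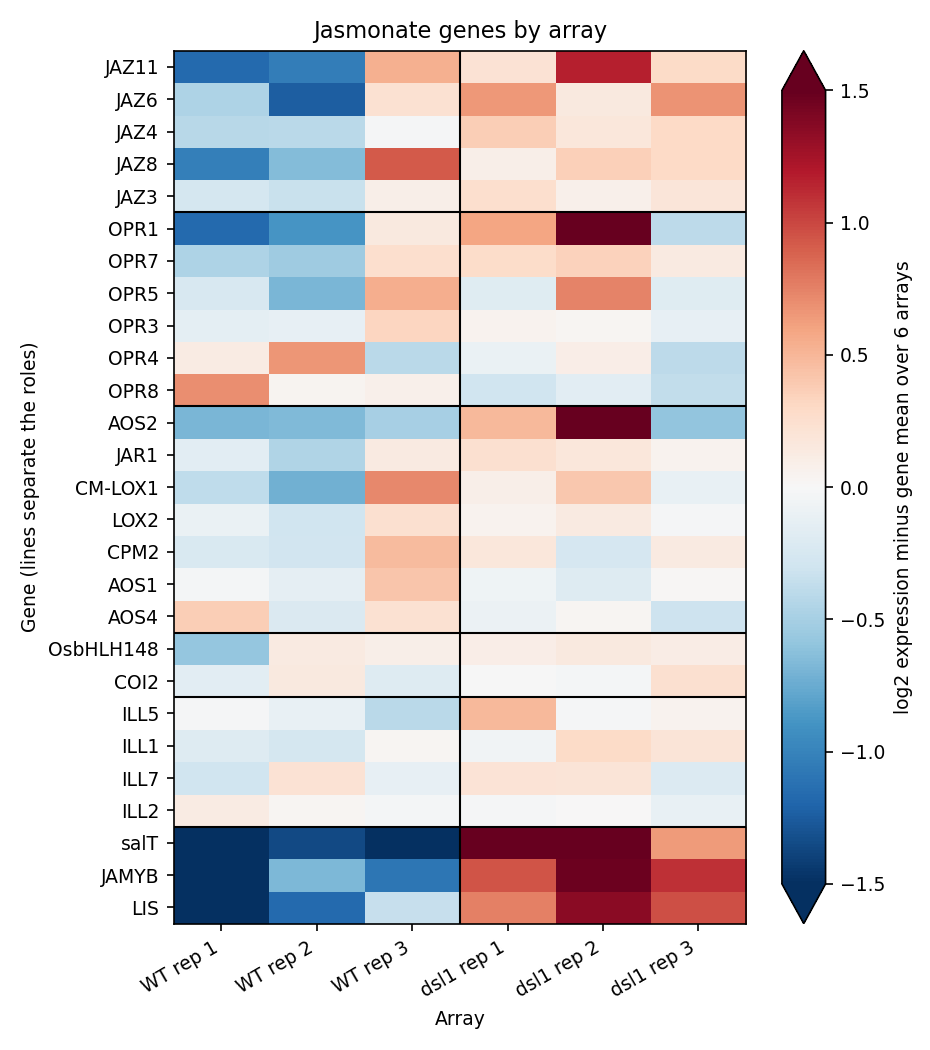
Log2 expression of each jasmonate gene minus its own mean over the 6 arrays, with arrays in columns and genes in rows grouped by role (red above, blue below, colours capped at 1.5). The third column, WT replicate 3, is above the gene mean for JAZ3, JAZ6, JAZ8 and JAZ11, OPR7 and most synthesis genes, and below it for salT, JAMYB and LIS.

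Without WT replicate 3, the log2 difference was 0.69 for JAZ4, 1.34 for JAZ6, 0.75 for OPR7, -0.64 for OPR8 and 2.39 for JAMYB, and the groups of 2 and 3 arrays did not overlap in any of the 5. Over the 22 list genes the median difference was 0.36, and groups did not overlap for 14 on the higher and 2 on the lower side. That setting gave 20.7% and 15.0% of all 15140 genes. None of the 22 passed in limma there, where no cluster of the 54922 passed, but 8 were on the higher side at an unadjusted p under 0.05 and 0 on the lower, against 8.26% and 4.93% of all genes. This setting leaves 2 WT arrays and was looked at because WT replicate 3 stood closest to the mutant, so its counts are a description. That array was the highest WT array for 14 of the 22, and leaving it out raises the difference in each of those. Nothing is therefore read from the counts on the higher side. JAZ8 and JAZ11 moved most among the 22, to 1.09 and 1.66, and JAZ3 then differed by 0.47.

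The profiles of JAZ4 and OPR7 across the 6 arrays were the closest pair among the 5 genes. After each profile was centred on its own mean, they differed by a root mean square of 0.161 on the log2 scale. JAZ6 differed from JAZ4 by 0.405 and from OPR7 by 0.406, and JAMYB differed from JAZ4, JAZ6 and OPR7 by 0.975 to 1.01. The profiles were not scaled, so these distances largely follow the size of the differences between dsl1 and WT, which were known when the genes were chosen. The root mean square about the own mean was 0.313 for JAZ4, 0.358 for OPR7, 0.673 for JAZ6 and 1.22 for JAMYB. Nothing is therefore read from the distances about likeness in shape.

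By the same measure, each gene was set against the 1740 other genes that carry a common name. Nearest to JAMYB were LIS at 0.389, LEA19, a late embryogenesis abundant protein, at 0.425, and CH16, a chitinase, at 0.436, beside a root mean square of 1.22 for JAMYB about its own mean. LIS was at 4.07, 4.46 and 5.29 in WT replicates 1 to 3 and 6.39, 6.99 and 6.59 in the dsl1 replicates. LIS shared with JAMYB the order of the 3 mutant arrays, with dsl1 replicate 2 the highest and dsl1 replicate 1 the lowest. The order of the WT arrays was not shared, since WT replicate 2 was the highest for JAMYB and WT replicate 3 for LIS. LEA19 had its lowest mutant value in dsl1 replicate 2. In WT its signal was very weak, at 1.76, 2.40 and 2.13 in replicates 1 to 3.

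**Figure D4:**
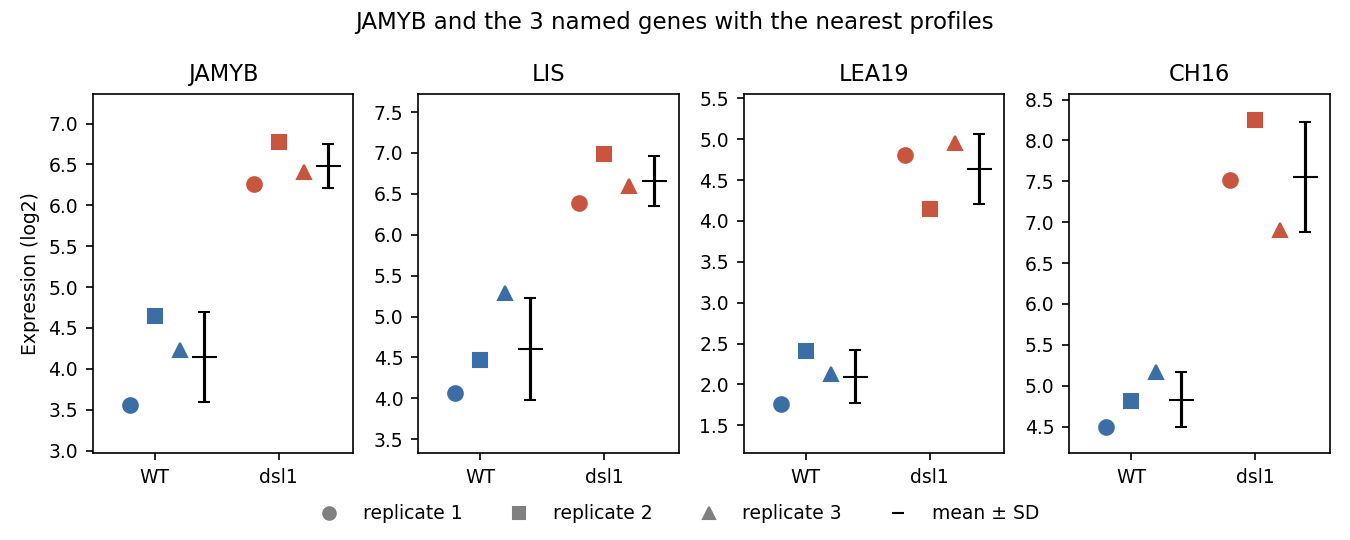
Log2 expression of JAMYB and of LIS, LEA19 and CH16, the 3 named genes whose centred profiles lay nearest to it, in the 3 WT (blue) and 3 dsl1 (red) arrays with mean and SD. Each panel has its own log2 axis of equal span. The groups are separated in all 4 genes, as follows from choosing genes for likeness to JAMYB.

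Nearest to JAZ4 were BC1L6, a COBRA-like gene, at 0.088, RAB16C, a dehydrin, at 0.0996 and WNK4, a protein kinase, at 0.100. RAB16C was weak, with all values between 2.78 and 3.49. Nearest to JAZ6 were CKX4, which breaks down cytokinin, at 0.245, the sugar transporter gene SWEET2B at 0.290 and HSP81-1, a heat shock protein, at 0.293. Each of the JAZ6 neighbours shared the low value in WT replicate 2. Nearest to OPR7 were DTC1, a diterpene cyclase gene, OsPP2C41, a protein phosphatase, and GT43H, a glycosyltransferase, at 0.120 to 0.127. Nearest to OPR8 were ENR, VLN4, an actin-binding villin, and ADF-1, an actin depolymerising factor, at 0.124 to 0.145. With 6 arrays and 1740 candidates, likeness of this kind is a description.

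Along the chromosomes, the measured genes nearest to the 5 were split between higher and lower. For each gene the nearest 3 measured genes on either side in the reference order were taken, a choice made after the values of the 5 genes were seen. Many of them are not adjacent. As many as 15 annotated genes lie between OPR8 and its furthest such gene, and 9 between JAZ6 and the nearest on 1 side. For JAMYB, 2 of 6 had the same sign, and the genes directly on either side differed by -0.10 and -0.059. BGLU36, a beta-glucosidase gene further out, differed by 1.16 with no overlap between groups. For JAZ4 and JAZ6, 3 of 6 each had the same sign, between -0.34 and 0.26 and between -0.36 and 0.19. OsTDX, directly beside JAZ4, was at -0.34 and LOC4347003, further out, at 0.26, both with no overlap. For OPR7 it was 3 of 6, with the gene directly beside it, LOC9271637, at 0.74 and no overlap. For OPR8 it was 4 of 6, with differences of -0.31 to 0.91, and LOC4329685 at 0.91 and LOC4329686 at -0.18 had no overlap. None of these neighbours passed in limma, and 6 of the 30 had groups that did not overlap, against 24.4% of all genes.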

How the data were processed

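Biotin-labelled targets from 6 shoot apex RNA samples were read on 1-colour Affymetrix arrays. The authors' deposited table of log2 values, 54922 clusters by 6 arrays, was used without further scaling. Per the submitters' processing notes the tool was Affymetrix Expression Console 1.3; the sources used here do not give its background correction or normalisation. Precision is limited by the 6 arrays.

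Gene names came from the platform's gene table (15829 clusters with 1 gene) and a rice gene reference (assembly ASM3414082v1), used for names and gene order only. The cluster with the highest mean stood for a gene. Names were matched as whole symbols or synonyms. Groups came from sample titles. dsl1 was compared with WT in limma 3.58.1 (R 4.3.3, lmFit and eBayes, 2-sided, no block), with Benjamini-Hochberg adjustment over all clusters. SEs are those of limma.

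The text names the 5 genes, all measured JAZ and OPR genes, up to 4 genes of each other list by absolute difference at or above the median level (LOX2, CPM2, AOS4, ILL2, COI2 and OsbHLH148 were added after their values were seen), and the 3 nearest profiles. Members and lists were chosen with earlier results of these data known. In simulated data over 54922 clusters, limma recovered 32% of changes of 1 and 95% of changes of 2 on the log2 scale, with 11 false calls. The simulated noise was normal and independent, with limma's moderated variance for each cluster and no array effects or outlying replicates. These shares are thus a check of the code and not the power of the real arrays. Alternatives changed the scaling, the filter, the clusters fitted, the variance model, the block and the arrays.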

Additional observations from a re-analysis of the deposited data

How the results depend on the processing

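Over quantile normalisation, median centring, the block and each left-out array, all 5 genes kept their direction: JAZ4 at 0.49 to 0.69 with 1 array left out, JAZ6 at 0.61 to 1.34, OPR7 at 0.36 to 0.75, OPR8 at -0.66 to -0.33 and JAMYB at 2.05 to 2.59. The direction was known when the genes were chosen. The 8 higher and 6 lower clusters passing in limma became 59 and 16 in the fit of clusters with 1 gene, and 36 and 16 without the 7793 rows before the first gene-paired cluster, a setting chosen after seeing the data. With 1 array left out they were 0 to 4 higher and 0 to 4 lower. Of the 22 other jasmonate genes, 2 passed in the fit of clusters with 1 gene, salT and LIS, and 0 in every other setting, which included each left-out array. Among the 22, signs changed for 7 in these settings: OPR3 (0.0027 on quantile normalisation, -0.11 to 0.13 with 1 array left out), OPR5 (-0.051 to 0.59), OPR4 (-0.52 to 0.013), CM-LOX1 (-0.049 to 0.67), AOS1 (-0.27 to 0.0030), LOX2 (-0.0087 to 0.26) and CPM2 (-0.012 on quantile normalisation, -0.034 with array weights, -0.10 to 0.28 with 1 array left out). The cause was not tested. Replicate numbers gave no sign of pairing: same-numbered arrays had correlations of deviations from the group mean of -0.064, -0.125 and -0.052. Arrays of different number had -0.147 to 0.198. With 3 arrays in each group, centred on their own mean, these values cannot exclude a pairing. With the replicate number as a block 1 cluster was higher and 0 lower. Weak signals, as of JAMYB in WT, limit how well a fold is known.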
